A study of Mus musculus with 9 samples.

Results

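Class-switched plasma cells are antibody-secreting cells that make IgG or IgA in place of IgM. They were followed in mouse spleen by CITE-seq, which reads the RNA and the antibody-tagged surface proteins of the same single cells. The cells were chosen by raw RNA UMIs, that is by counts of distinct captured molecules. A cell needed at least 5 UMIs of Xbp1, at least 20 UMIs of Jchain, and 1 of Igha, Ighg1, Ighg2b, Ighg2c or Ighg3 above Ighm and above the other 4. This rule found 349 cells among 45217 kept cells, out of 51451 deposited barcodes. Because these genes selected the cells, their levels are given below as description and no test is built on them. The closest cells, 579 IgM plasma cells, passed the same gate with Ighm as the highest constant-region gene.

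The mice carried the R594C allele of the IRE1α gene Ern1 on both copies (R594C/R594C, 2 replicates), on 1 copy (R594C/+, 4 replicates) or on neither copy (WT, 4 replicates). Total splenocytes were sorted as DAPI-negative cells, and the labels give no age, sex or treatment. Each genotype was 1 droplet capture with 1 staining, and its replicates were told apart inside that capture by hashtag antibodies against CD45 and MHC class I. Genotype, capture and staining therefore cannot be told apart in any comparison between genotypes. The labels do not say that replicates are separate animals, so the p-values below reflect sample-to-sample spread alone, which may be technical in part. Y-linked RNA exceeded the female-expressed Xist in R594C/R594C replicate 1 and WT replicates 1, 3 and 4, and Xist exceeded it in all others. The replicates of R594C/R594C, and those of WT, thus did not all come from 1 animal.

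When a B cell becomes a plasma cell it fills its cytoplasm with endoplasmic reticulum (ER) and secretes antibody. Class switching exchanges the constant region of the heavy chain from IgM to IgG or IgA while the variable (V) region is kept. IRE1α is an ER membrane sensor that splices the Xbp1 mRNA, and spliced XBP1 is the transcription factor that drives genes for protein folding, translocation, degradation and transport in the ER. The J chain, from Jchain, joins IgA into dimers and IgM into pentamers.

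The 15-base barcodes of the 4 hashtags are shown because they are what assigns each cell to a replicate.
Hashtag 1: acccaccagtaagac
Hashtag 2: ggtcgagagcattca
Hashtag 3: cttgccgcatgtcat
Hashtag 4: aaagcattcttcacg
The constant-region genes that split the cells lie on chromosome 12 of GRCm38.p6, Igha at 113256204-113260236, Ighg2c at 113287389-113288932, Ighg2b at 113304314-113307933, Ighg1 at 113326541-113330523, Ighg3 at 113357442-113361232 and Ighm at 113418826-113422730.

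The number of class-switched plasma cells per replicate was 10 and 75 in R594C/R594C spleens, 34, 43, 27 and 63 in R594C/+ spleens, and 15, 49, 10 and 23 in WT spleens. R594C/R594C replicate 1 and WT replicate 3, with 10 cells each, are the thinnest samples. Median RNA UMIs per cell lay between 15980 and 23940 across replicates, and the summed class-switched UMIs per replicate between 177078 and 1328263. Immunoglobulin genes took 41.6% to 62.2% of those UMIs. The 3 captures shared between 68 and 89 cell barcodes in pairs, and none of the class-switched cells was among them. Summed neutrophil markers reached 9118 CPM in R594C/+ replicate 4 and at most 204 CPM in the other class-switched sums. Dendritic cell markers Xcr1 and Clec9a were at 0. Across all kept cells, 6 replicates had Xist above Y-linked genes and 4 had Y-linked genes above Xist.

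The gate was checked against plasma cell genes that it did not use. Sdc1, which encodes the plasma cell surface protein CD138, had a UMI in 86.0% of class-switched plasma cells and in 0.607% of T cells from the same spleens. Prdm1, the gene for the plasma cell regulator Blimp-1, had a UMI in 71.1% of them. The median depth was 18600 UMIs in class-switched plasma cells and 3846 UMIs in T cells, so these shares are not matched for depth. Free RNA was present in the captures, since 32.3% of T cells had a Jchain UMI and 17.0% an Igha UMI. The mean was however 0.433 Jchain UMIs per T cell, against a mean of 498 in class-switched plasma cells. The B cell gene Ms4a1 still had a UMI in 51.0% of the class-switched cells. The CD138 antibody tag gave little signal, 483 antibody CPM (CPM are UMIs scaled to a library total of 1000000, here of antibody UMIs) in class-switched plasma cells and 259 in T cells, so the label rests on RNA. Just inside the gate, 9 cells had 5 or 6 UMIs of Xbp1, and a UMI of Sdc1 was present in 44.4% of them. Just outside it, 9 cells had 3 or 4 UMIs of Xbp1, with Sdc1 in 55.6%. For Jchain, 5 cells held 20 to 29 UMIs, 80.0% of them with Sdc1, and 18 cells just outside held 10 to 19 UMIs, 38.9% with Sdc1.

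IgG3, IgG2b, IgG2c and IgA each made up 21.5% to 24.6% of the class-switched cells, and IgG1 made up 5.44%. The totals were 86 cells with Ighg3 highest, 85 with Ighg2b, 84 with Ighg2c, 75 with Igha and 19 with Ighg1. The top isotype held a median of 172 times the UMIs of the next constant-region gene, and 6 cells had a ratio under 3. The isotypes were spread unevenly over replicates. IgG3 was the top isotype in 1 and 45 cells of the R594C/R594C replicates, in 2, 1, 4 and 28 cells of the R594C/+ replicates, and in 0, 4, 0 and 1 cells of the WT replicates. R594C/R594C replicate 2 and R594C/+ replicate 4 thus held 73 of the 86 IgG3 cells. IgG2c was the top isotype in 1 and 3 cells of the R594C/R594C replicates, in 3, 15, 14 and 18 cells of the R594C/+ replicates, and in 6, 15, 4 and 5 cells of the WT replicates. IgA was found in every replicate, with 3 and 21 cells in R594C/R594C, 5, 11, 4 and 5 in R594C/+, and 3, 19, 1 and 3 in WT.

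**Figure D1:**
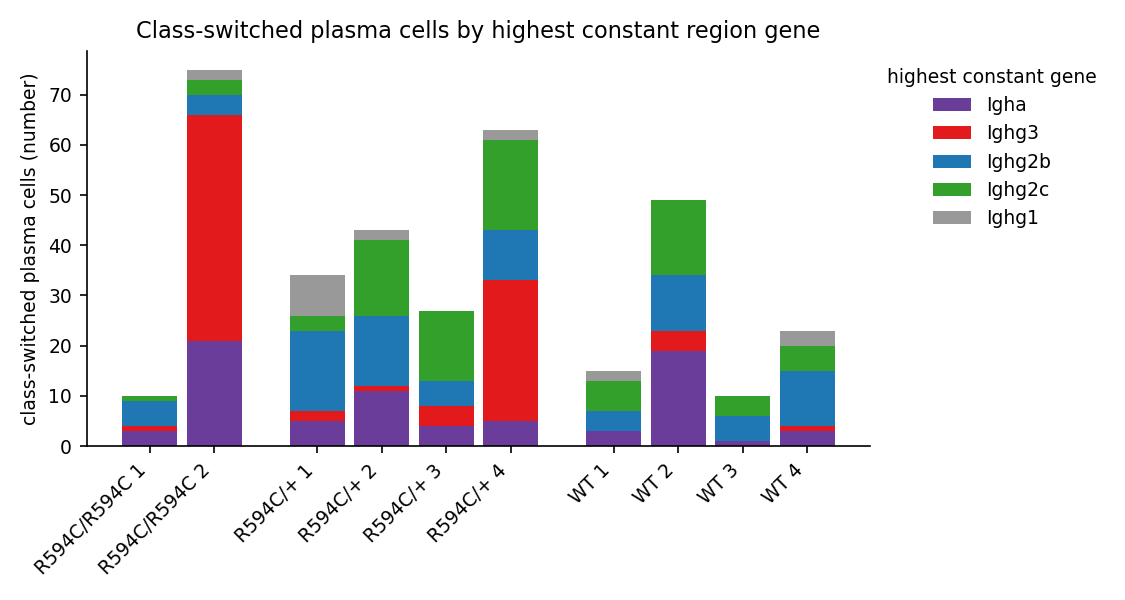
Number of class-switched plasma cells (y axis) in each replicate (x axis), each bar split by the highest constant-region gene. IgG3 cells number 45 in R594C/R594C replicate 2 and 28 in R594C/+ replicate 4, and at most 4 in any other replicate.

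As a share of class-switched plasma cells, IgG3 was 35.0% ± 35.4 in R594C/R594C (SD, n = 2), 16.9% ± 19.1 in R594C/+ (n = 4) and 3.13% ± 3.93 in WT (n = 4). The IgG2c share was 7% ± 4.24 in R594C/R594C, 31% ± 17.8 in R594C/+ and 33.1% ± 8.77 in WT. Both R594C/R594C replicates, at 10.0% and 4.00% IgG2c, lay below the WT range of 21.7% to 40.0%, and both lay above the WT range for IgG3. In replicate 1 each of these shares was 1 cell of 10, and the highest WT share of IgG3 was 8.16%. The place of that replicate above the WT range for IgG3 therefore rests on 1 cell. A two-sided exact permutation test over the 3 genotypes gave p = 0.135 for IgG2c and p = 0.157 for IgG3, with a Benjamini-Hochberg adjusted p of 0.627 for each over the 8 shares compared. For R594C/R594C against WT alone, both exact permutation p-values were 0.0667, the smallest that 2 samples against 4 allow, so this pair could not have passed 0.05. The mean IgG2c share of R594C/R594C minus WT was -26.1 percentage points and that of IgG3 was 31.9 points.

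How common the class-switched cells were did not differ between genotypes beyond the spread of replicates. They were 0.527 ± 0.558 per 100 kept cells in R594C/R594C (n = 2), 1.08 ± 0.369 in R594C/+ (n = 4) and 0.669 ± 0.378 in WT (n = 4), with an exact permutation p of 0.265 and an adjusted p of 0.679. Among plasma cells they were 37.4% ± 37.0 in R594C/R594C, 36.6% ± 8.40 in R594C/+ and 34.0% ± 17.0 in WT (exact permutation p = 0.973). The R594C/R594C replicates spanned 11.2% to 63.6%, wider than all WT replicates together (19.7% to 57.0%). The 6 replicates with Xist above Y-linked genes held 27 to 75 class-switched cells, or 0.576 to 1.39 per 100 kept cells. The 4 replicates with Y-linked genes above Xist held 10 to 23, or 0.133 to 0.715 per 100. All R594C/+ replicates are in the first set and 3 of the 4 WT replicates in the second, and the part of expressed sex in the shares was not tested.

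J chain RNA separated the isotypes. The median was 927 Jchain UMIs per IgA cell and 274.5 per IgG cell, and it was higher in IgA than in IgG cells in 10 of 10 replicates. The IgA medians rest on 1 to 21 cells per replicate, and in R594C/R594C replicate 1 they were 634 against 550. IgM plasma cells had a median of 680. Within IgG, the median ran from 176 UMIs in IgG3 cells to 337 in IgG2b cells. Xbp1 ran the other way, with a median of 18 UMIs in IgA cells and 27 in IgG cells, and it was higher in IgA cells in 1 of 10 replicates. Both genes belong to the gate, so this is a description. Lambda light chains were the top light chain in 19 of 75 IgA cells (25.3%) and in 7 of 274 IgG cells (2.55%). Of the 26 lambda cells, 11 came from WT replicate 2 and 8 from R594C/R594C replicate 2, so the share rests mostly on those replicates.

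A single heavy-chain V gene, Ighv1-78, recurred in the class-switched cells. A V gene was called where it had at least 5 UMIs and at least 3 times the next V gene. The V region is at the far end of the transcript from the sequenced 3′ end, so calls rest on few UMIs and near-identical V genes may share reads. Of 256 class-switched cells with a heavy V call, 91 (35.6%) had Ighv1-78, against 11 of 430 IgM plasma cells (2.56%). Ighv1-78 lies at chromosome 12:115868773-115869066 (GRCm38.p6). By replicate it was called in 0 and 37 cells of R594C/R594C, in 2, 0, 10 and 29 cells of R594C/+, and in 1, 11, 0 and 1 cells of WT. Where it was common it was 69.8% of heavy V calls in R594C/R594C replicate 2, 61.7% in R594C/+ replicate 4, 47.6% in R594C/+ replicate 3 and 34.4% in WT replicate 2. The other 6 replicates had at most 2 such cells each.

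The isotypes and light chains of the Ighv1-78 cells varied between replicates. In R594C/R594C replicate 2 and R594C/+ replicate 4 most were IgG3, and Igkv4-61 was the light-chain gene called most often. No light V gene was called in 41 of the 91 Ighv1-78 cells, among them 21 of 37 and 16 of 29 in those replicates. In R594C/R594C replicate 2, 36 of the 37 were IgG3, and 10 had Igkv4-61 and 5 had Iglv1, a gene also seen in WT replicate 2. In R594C/+ replicate 4, 22 of the 29 were IgG3 and 12 had Igkv4-61. In R594C/+ replicate 3, 6 of the 10 were IgG2c and 6 had Igkv14-111. In WT replicate 2, 10 of the 11 were IgA and all 11 had Iglv1. The light-chain genes lie on chromosome 6 (Igkv4-61 at 69416893-69417425 and Igkv14-111 at 68256404-68256869) and on chromosome 16 (Iglv1 at 19085017-19085460). Ighv1-78 cells were 58 of the 73 IgG3 cells in R594C/R594C replicate 2 and R594C/+ replicate 4.

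**Figure D2:**
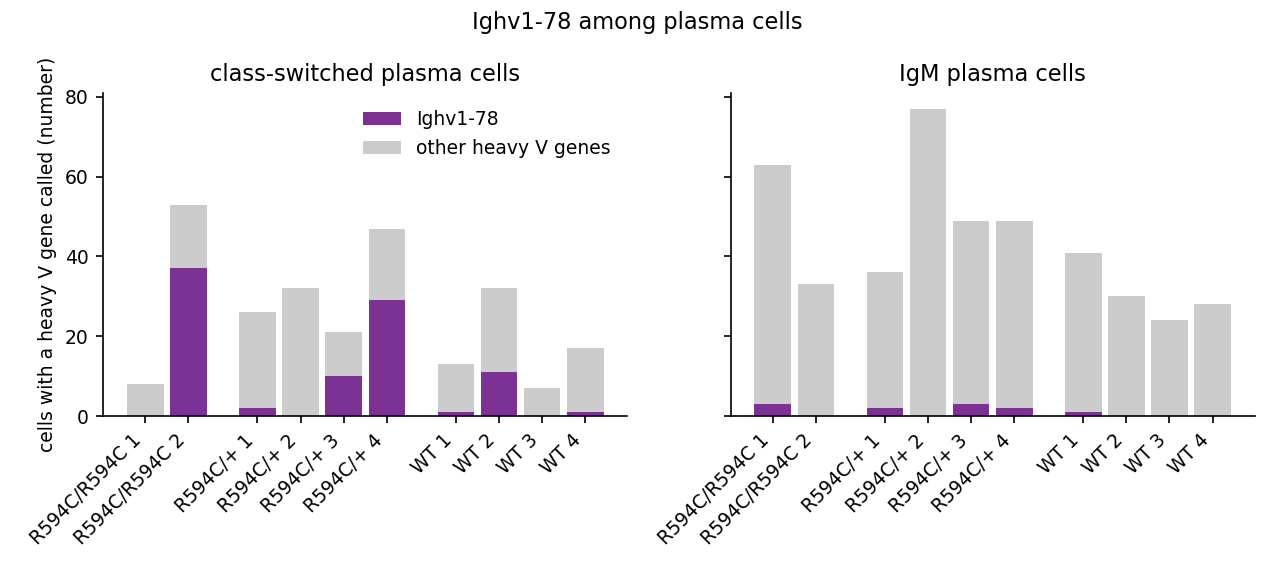
Number of class-switched (left) and IgM plasma cells (right) with a heavy-chain V gene call in each replicate, with Ighv1-78 set apart from the other V genes. In class-switched cells Ighv1-78 reaches 37 cells in R594C/R594C replicate 2 and 29 in R594C/+ replicate 4, and is absent from R594C/R594C replicate 1, R594C/+ replicate 2 and WT replicate 3.

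Both a heavy and a light V gene were called in 155 class-switched cells, giving 85 distinct pairs. A pair seen in at least 2 cells of 1 replicate covered 70 of the 155 cells (45.2%), against 118 of 319 IgM plasma cells (37.0%). Counting a pair once for each replicate in which this held, there were 13 such combinations of pair and replicate, and 9 of them held cells of at least 2 isotypes. Outside Ighv1-78, the most frequent were Ighv1-61 with Igkv8-27 in 6 cells of WT replicate 2 (4 IgG2b, 2 IgG2c) and Ighv1-26 with Igkv6-25 in 5 cells of R594C/+ replicate 1. Of all 85 pairs, 10 were seen in 2 or more replicates. V gene names alone do not show that cells share a clone. The V genes named here were chosen after their counts were seen.

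Class-switched plasma cells had more RNA than IgM plasma cells of the same replicates for the homing receptors Cxcr3, Ccr9, Ccr10 and Itgb7. They had less for Cox6a2, for Slc3a2 and 3 other targets of the stress factors ATF4 and CHOP, and for the survival receptor Tnfrsf17. RNA was summed per replicate and class, immunoglobulin genes, Jchain and Xbp1 were left out, and levels are CPM of the other UMIs. By edgeR's quasi-likelihood test with the replicate as a block and Benjamini-Hochberg adjustment, 66 of 6636 genes rose (0.995%) and 112 fell (1.69%) in class-switched cells. DESeq2 called 139 in all. Where an alternative left out cells, a replicate then under 10 cells of a class was dropped from it. Leaving out IgG3 cells dropped R594C/R594C replicate 1, where 1 of 10 class-switched cells was IgG3.

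Cxcr3 encodes a receptor for interferon-induced chemokines. It had 24.2 to 101 CPM (median 61.4) in class-switched sums and 6.26 to 31.2 CPM (median 17.1) in IgM sums. The ranges overlapped, but the class-switched cells were higher in 10 of 10 replicates. The log2 fold change was 1.73 (SE 0.23, adjusted p = 2.5e-05). It was 1.13 and no longer passed when cells with a UMI of Mki67 or Top2a, genes of dividing cells, were left out. This choice removed 140 of 349 class-switched and 204 of 579 IgM plasma cells. It also dropped R594C/R594C replicate 1 and WT replicates 1 and 3, each then under 10 class-switched cells. For calls lost this way, here and below, the parts of dividing cells and of fewer replicates were not separated. Cxcr3 lies on chromosome X:101731535-101734147 (GRCm38.p6).

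Of the 17 tested homing and egress receptors, 4 rose and none fell, and the median log2 fold was 0.13 for the list and -0.005 for all genes. Besides Cxcr3 these were the mucosal chemokine receptors Ccr9 (log2 fold 2.37) and Ccr10 (1.58), and Itgb7 (1.06), the β7 integrin chain used to enter the gut. Ccr10 had 7.43 to 89.3 CPM (median 38.8) in class-switched sums and 4.49 to 28.4 CPM (median 13.5) in IgM sums, and was higher in 7 of 10 replicates. Ccr9 was also higher in 7 of 10 replicates, and its call was lost without each of 7 replicates in turn and without cells holding 3 or more UMIs of T cell or macrophage genes. The Itgb7 call was also lost under a looser gate of at least 3 Xbp1 and 10 Jchain UMIs, without those cells and without IgG3 cells. Calls for Ccr10 and Itgb7 were lost without R594C/+ replicate 1 or R594C/R594C replicate 2, at log2 folds between 0.95 and 1.33 for Itgb7 and between 1.39 and 1.90 for Ccr10 over all such fits.

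Slpi, a secreted protease inhibitor, had 3505 to 38510 CPM (median 12070) in class-switched sums and 1300 to 4777 CPM (median 3690) in IgM sums. It was higher in class-switched cells in 9 of 10 replicates (log2 fold 1.80, adjusted p = 0.0211), and the call was lost without R594C/+ replicate 2 or WT replicate 4, without cells holding T cell or macrophage genes, and without cells holding a UMI of Mki67 or Top2a. Il2rb, the β chain of the IL-2 and IL-15 receptors, was higher in 10 of 10 replicates (log2 fold 1.61). Its call was lost without WT replicate 1 or under a stricter gate of at least 10 Xbp1 and 50 Jchain UMIs. That gate also dropped R594C/R594C replicate 1. Hemgn had the highest fold, and its call was lost by DESeq2 and without IgG3 cells. It came from R594C/+ replicates 1 and 2, at 40.8 and 67.4 CPM, with at most 3.31 CPM in any other. Pooled, Hemgn had 38 UMIs in class-switched cells and 2 in IgM cells, a ratio of 30.6 with a 95% counting interval of 7.91 to 262. The same class-switched sums had the most erythroid marker RNA, 1711 and 682.5 CPM summed over 5 genes, against at most 174 CPM in any other class-switched sum and 167 in any IgM sum. Its part in the Hemgn value was not tested. Gm8879 (2.59) and Irak1bp1 (1.99) complete the 8 highest folds, and the Irak1bp1 call was lost without any of 3 replicates and under 2 other alternatives.

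Cox6a2, a subunit isoform of cytochrome c oxidase, had the lowest fold. It had 0 CPM in 7 class-switched sums and at most 11.7 CPM in the other 3, against 18.6 to 131 CPM (median 72.1) in IgM sums. The ranges did not overlap, and the log2 fold was -4.12 (SE 0.41, adjusted p = 2.48e-06). Next among the genes that fell were Ifitm1 (-2.92), Ggh (-2.27), Shisa8 (-1.87), Dgkg (-1.80), Cd200 (-1.68) and 1810041H14Rik (-1.67), the last losing its call without R594C/+ replicate 1 or R594C/R594C replicate 1, or without cells holding T cell or macrophage genes. Ifitm1 lost its call by DESeq2, where the log2 fold was -1.58 (adjusted p = 0.954), and without IgG3 cells (edgeR's adjusted p = 0.0511). Cd200 lost its call without cells holding a UMI of Mki67 or Top2a (log2 fold -1.11).

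Slc3a2, the heavy chain of the CD98 amino acid transporter, had 367 to 674 CPM (median 482) in class-switched sums and 816 to 2099 CPM (median 1562) in IgM sums, with no overlap (log2 fold -1.62, SE 0.16, adjusted p = 0.000131). Asns, which makes asparagine, fell by 1.25 on the log2 scale, the mitochondrial folate enzyme Mthfd2 by 0.94, and Phgdh, the first enzyme of serine synthesis, by 0.54. These 4 belong to a list of targets of the stress factors ATF4 and CHOP, of which 11 of 12 tested members had negative folds, 4 fell and none rose (median -0.64). Ddit3, which encodes CHOP, fell by 0.83, and Ppp1r15a by 0.45. Eif2ak3, the gene of the sensor PERK, rose by 0.63. The calls for Ppp1r15a and Eif2ak3 were lost without each of 7 and of 6 replicates in turn, and under 7 and 3 other alternatives. None of the 5 tested members of a list of amino acid and nutrient transporters passed (median -0.115).

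The ER lists as a whole stood near all genes. Of 82 tested members of the chaperone, translocation, degradation and transport lists, 42 had negative folds, 3 fell and none rose. Txndc5, a disulfide isomerase, had 1040 to 2234 CPM (median 1374) in class-switched sums and 2249 to 4145 CPM (median 3204) in IgM sums. The ranges did not overlap (log2 fold -1.09, SE 0.10, adjusted p = 1.2e-06). The glycosylation subunit Stt3b fell by 0.77 and the degradation adaptor Sel1l by 0.51. Both calls were lost without cells holding a UMI of Mki67 or Top2a, and the Sel1l call also without any of 3 replicates, with no replicate block, or with the top isotype at least 3 times the second.

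Of 18 tested plasma cell surface and survival genes, 2 fell and none rose. Tnfrsf17 encodes BCMA, the receptor through which APRIL keeps plasma cells alive. It had 44.6 to 216 CPM (median 160) in class-switched sums and 238 to 444 CPM (median 381) in IgM sums, again without overlap (log2 fold -1.31, SE 0.20, adjusted p = 0.00313). The call was lost without IgG3 cells (adjusted p = 0.0666 by edgeR). Bcl2, which blocks cell death, fell by 0.96, and its call was lost without R594C/+ replicate 2. Pou2af1, a B cell coactivator, fell by 0.52. The immediate early genes Egr1 and Ier2 fell by 0.98 and 0.81, and 12 of the 13 in their list had negative folds (median -0.60). The Egr1 call was lost under 3 alternatives, with edgeR's adjusted p up to 0.344: without cells holding T cell or macrophage genes, without cells holding a UMI of Mki67 or Top2a, and with the top isotype at least 3 times the second.

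All 20 tested proliferation genes had positive folds in class-switched cells (median 0.53), but 1 passed, the nucleotide-synthesis gene Rrm2 (1.15), which lost its call without any of 4 replicates and under 2 other alternatives. Of 10 MHC class II genes, 9 had positive folds (median 0.31) and none passed. Of 11 tested T-bet and age-associated B cell genes, 2 rose, Crip1 (0.87) and S100a6 (1.40), the S100a6 call being lost without any of 5 replicates and under 5 other alternatives. The Crip1 call was lost without cells holding a UMI of Mki67 or Top2a (log2 fold 0.77, adjusted p = 0.365 by edgeR). Both are broadly expressed and not specific to that B cell subset. Of 11 interferon genes, 1 rose, Bst2 (0.37), and its call was lost without any of 8 replicates and under 7 other alternatives.

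Antibody tags gave a readout that the rule did not use. Of 102 tags tested the same way on antibody UMIs, 9 rose (8.82%) and 7 fell (6.86%) in class-switched cells. CD183 is the protein of Cxcr3. It had 2924 to 8179 antibody CPM (median 5077) in class-switched sums and 1219 to 3361 (median 2268) in IgM sums, and was higher in 10 of 10 replicates (log2 fold 1.24, SE 0.23, adjusted p = 0.00106). CD274, the inhibitory ligand PD-L1, had 19460 to 28920 antibody CPM (median 23640) in class-switched sums and 9868 to 19510 (median 14940) in IgM sums, also higher in 10 of 10 replicates (log2 fold 0.66, adjusted p = 0.000218). The tag named Integrin rose most (1.68). CD43 (0.73), CD80 (0.66), Ly6C (0.61), the adhesion chain CD11a (0.54), CD2 (0.54) and CD48 (0.49) rose too, CD80 losing its call without each of 7 replicates.

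CD200, an inhibitory surface ligand, had 1119 to 2970 antibody CPM (median 1619) in class-switched sums and 2025 to 9723 (median 3670) in IgM sums, and was lower in all 10 replicates (log2 fold -1.22, adjusted p = 0.000425). The activation marker CD69 fell by 0.99, CD79b by 0.95, CD29 by 0.58, CD1d by 0.51 and CD38 by 0.43, the CD1d and CD38 calls being lost without 5 and 6 replicates in turn. The IgM tag fell by 2.33, and is tied to the rule that chose the cells.

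Of the 12 called tags whose gene was tested in RNA, 10 had the same sign in RNA and 6 were called there, all 6 with the same sign. These 6 were CD43 with Spn (RNA log2 fold 0.57), CD274 with Cd274 (0.63), CD48 with Cd48 (0.49), CD183 with Cxcr3 (1.73), CD200 with Cd200 (-1.68) and CD69 with Cd69 (-0.79). For CD79b and CD29 the RNA folds were 0.12 and 0.11, opposite in sign to the tags, and did not pass. The pairs of tag and gene were set after the tag values were seen. The barcodes of the 6 tags that changed with their RNA are shown because each is the sequence that was counted as protein.
CD183: gttcacgccgtgtta
CD274: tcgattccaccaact
CD43: ttggagggttgtgct
CD48: agaaccgccgtagtt
CD200: tcaattccggtagtc
CD69: ttgtattccgccatt

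**Figure D3:**
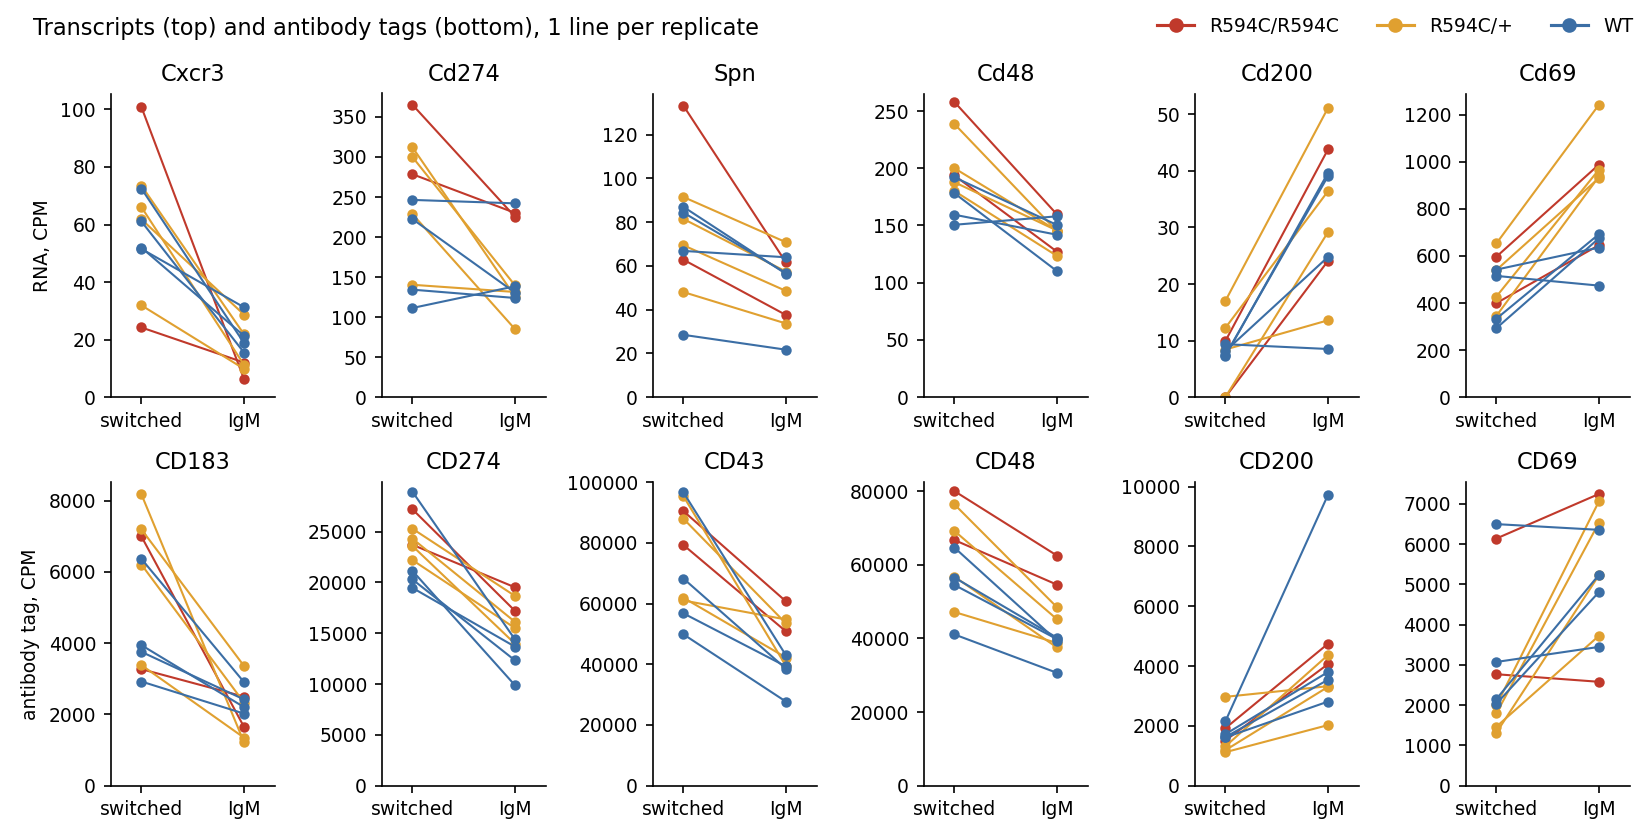
RNA (top, CPM outside immunoglobulin genes) of 6 genes and antibody tags (bottom, CPM of antibody UMIs) of their proteins, in class-switched and IgM plasma cells, with a line joining both classes of each replicate. Cxcr3 RNA and the CD183 tag lie higher in class-switched cells in 10 of 10 replicates, and the CD200 tag lies lower in 10 of 10.

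Within the class-switched cells, IgA and IgG cells were compared in the 3 replicates that held at least 10 of each, R594C/R594C replicate 2, R594C/+ replicate 2 and WT replicate 2. IgA cells had more RNA for the mucosal receptor Ccr10, for Tnfrsf17 (BCMA) and for S100a6, Anxa2 and Vim, and less for Cxcr3, for the MHC class II gene H2-Ab1 and for Mki67 and Cenpf. By edgeR with the replicate as a block, 25 of 3922 genes rose (0.637%) and 14 fell (0.357%) in IgA cells. With 3 replicates these calls are fragile. No gene passed without R594C/R594C replicate 2 or without R594C/+ replicate 2, and 132 passed without WT replicate 2.

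Tnfrsf17 had 574, 371 and 432 CPM in IgA cells of R594C/R594C, R594C/+ and WT replicate 2, against 54.3, 65.8 and 90.3 CPM in the IgG cells of the same replicates. Every IgA sum was above every IgG sum (log2 fold 2.90, SE 0.27, adjusted p = 0.000262). Ccr10 had 272, 173 and 19 CPM in IgA cells and 16.5, 11 and 15.1 CPM in IgG cells of the same replicates (log2 fold 3.55, adjusted p = 0.00992). The WT replicate showed almost no difference. Cxcr3 had 0, 24.8 and 6.35 CPM in IgA cells and 144, 73.1 and 79.1 CPM in IgG cells (log2 fold -3.53, adjusted p = 0.0307). Pooled, that is 3 UMIs in IgA and 102 in IgG cells, an IgG-over-IgA ratio of 13.3 with a 95% counting interval of 4.41 to 65.4. The IgM plasma cell ranges given above were scaled separately. Beside them, Cxcr3 in IgA cells and Ccr10 in IgG cells lay inside or below the IgM range. Tnfrsf17 in IgA cells lay inside or above it. The class-switched folds of these genes against IgM cells therefore do not describe IgA and IgG cells alike.

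The other highest folds in IgA cells were S100a6 (3.6), the sodium pump subunit Atp1b1 (3.52), the membrane-binding protein Anxa2 (2.79), Emb (2.50), the lymph node homing receptor Ccr7 (1.96) and the intermediate filament Vim (1.91). Of the 10 tested genes on the T-bet and age-associated list 4 rose, Vim, Anxa2, S100a6 and Crip1 (1.43), and all 10 had positive folds (median 1.15). The T-bet gene Tbx21 was not among those that passed. Txndc5 (1.22), the trafficking regulator Klf2 (1.43), Bcl2 (1.5), Ifi27l2a (1.46) and Fos (0.77) rose as well. Among the genes that separated class-switched from IgM cells, Tnfrsf17, Txndc5 and Bcl2 were lower in class-switched cells as a whole and higher in IgA than in IgG cells.

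The lowest folds in IgA cells after Cxcr3 were Klhl6 (-3.48), Cenpf (-2.91), Apoe (-2.39), Mef2b (-2.06), Mki67 (-1.96), Dut (-1.87) and Ezh2 (-1.72). Apoe was the 1 tested member of a list of monocyte and macrophage markers. Summed over 6 such markers, the class-switched cells of R594C/R594C replicate 2 had 650 CPM. Those of R594C/+ replicate 2 had 19.7 CPM and those of WT replicate 2 had 18.7 CPM. The part of such RNA in the Apoe value was not tested. Klhl6, Mef2b and Ezh2 are active in germinal centre B cells. Mki67, a marker of dividing cells, had 52.1, 24.8 and 197 CPM in IgA cells and 248, 461 and 508 CPM in IgG cells. All 20 proliferation genes had negative folds (median -1.16), and 2 passed, Mki67 and Cenpf. These folds are of summed RNA and not of the share of dividing cells. A UMI of Mki67 or Top2a was held by 26 of 75 IgA and 114 of 274 IgG cells over all replicates. In R594C/R594C, R594C/+ and WT replicate 2 it was 8 of 21, 2 of 11 and 7 of 19 IgA cells. Among IgG cells of the same replicates it was 22 of 54, 13 of 32 and 12 of 30. H2-Ab1, an MHC class II chain, had 1234, 792 and 971 CPM in IgA cells and 4006, 2084 and 1600 CPM in IgG cells (log2 fold -1.11). All 9 tested MHC class II genes had negative folds (median -0.45). Without cells holding a UMI of Mki67 or Top2a, 6 genes passed in all, and without IgG3 cells none did.

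**Figure D4:**
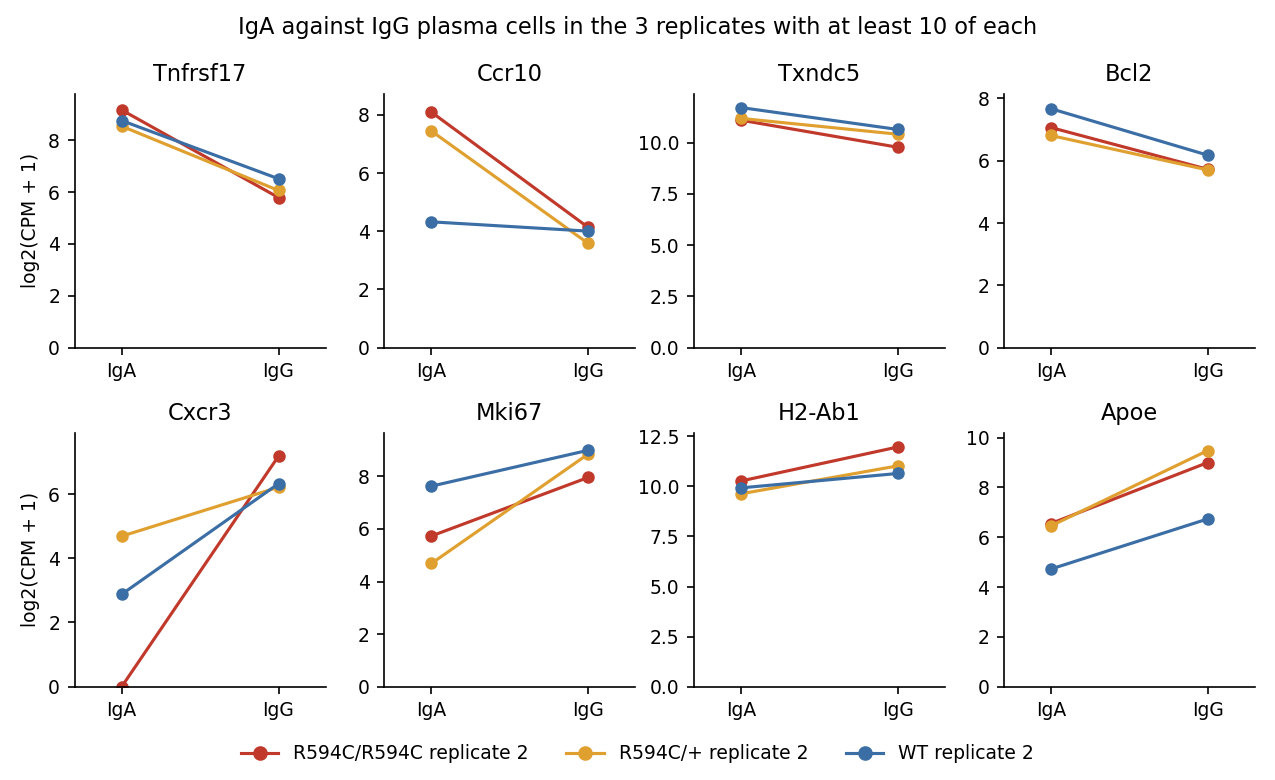
IgA against IgG plasma cells in the 3 replicates with at least 10 cells of each, as log2(CPM + 1) outside immunoglobulin genes, with a line for each replicate. In CPM, Tnfrsf17 lies between 371 and 574 CPM in IgA and between 54.3 and 90.3 CPM in IgG cells, and Cxcr3 at most at 24.8 CPM in IgA and at least at 73.1 CPM in IgG cells.

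Between genotypes, few genes passed in class-switched plasma cells. Ern1, the mutated gene, had 12.1 and 51.3 CPM in the R594C/R594C replicates, 33.7 to 54.0 CPM in R594C/+ and 22.3 to 44.5 CPM in WT. The 12.1 CPM is at the counting floor, since R594C/R594C replicate 1 had 10 cells with 78149 UMIs outside immunoglobulin genes. R594C changes the protein and not necessarily its RNA level, and the counts do not read the allele or the splicing of Xbp1. Xbp1, a gate gene, averaged 3766 ± 16.5 CPM in R594C/R594C (SD, n = 2), 3479 ± 410 in R594C/+ (n = 4) and 2743 ± 931 in WT (n = 4).

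Vpreb3, which encodes a protein bound to the immunoglobulin light chain in the ER of B cells, was the 1 gene of 4602 that passed for R594C/R594C against WT (0.0217%) and also the 1 that passed for R594C/+ against WT (0.0217%). It had 145 and 245 CPM in R594C/R594C, 90.1 to 241 CPM in R594C/+ and 21.7 to 60.9 CPM in WT. Every replicate with the allele was above every WT replicate. The log2 fold was 2.06 for R594C/R594C (SE 0.33, adjusted p = 0.0102) and 1.69 for R594C/+ (adjusted p = 0.0273), and both comparisons share the WT replicates. The R594C/R594C call was lost without R594C/R594C replicate 2 (log2 fold between 1.61 and 2.22 over the single replicates left out) or WT replicate 4, and the R594C/+ call without any of 5 replicates. Both calls were also lost with expressed sex as a covariate and under the stricter gate, the R594C/R594C call with the replicate block, and the R594C/+ call with immunoglobulin genes kept. The stricter gate took R594C/R594C replicate 1 under 10 cells and so dropped it. Without cells holding a UMI of Mki67 or Top2a, the Vpreb3 fold reached 6.11 for R594C/R594C and 5.36 for R594C/+. That fit also lost R594C/R594C replicate 1 and WT replicates 1 and 3, each then under 10 cells. R594C/R594C was thus replicate 2 alone, against WT replicates 2 and 4. The parts of lost cells and lost replicates in these folds were not separated. In IgM plasma cells Vpreb3 had 60.2 and 53.2 CPM in R594C/R594C, 21.9 to 102 CPM in R594C/+ and 28.4 to 73.0 CPM in WT, which overlap. For R594C/R594C against R594C/+ edgeR called none, with 330 genes at an unadjusted p under 0.05, and DESeq2 called 7.

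Genes of the secretory pathway had lower levels in R594C/R594C than in WT across nearly all list members, and none passed after adjustment. Of 84 genes in the chaperone, translocation, degradation and transport lists, 81 were tested and 79 had negative folds for R594C/R594C against WT. The unadjusted p was under 0.05 for 33 of them, 32 with a negative fold, and the lowest adjusted p was 0.133. Of all 4602 tested genes, 352 had an unadjusted p under 0.05 in this comparison. Of the 81 list members, 4 had such a p for R594C/+ against WT and 44 for R594C/R594C against R594C/+. The same lists had 29 of 81 negative folds for R594C/+ against WT, and 79 of 81 for R594C/R594C against R594C/+, where the R594C/R594C replicates are the same as before. DESeq2 called none of these genes for R594C/R594C against WT. Median log2 folds for R594C/R594C against WT were -0.56 for chaperones and disulfide isomerases (19 of 19 negative), -0.36 for translocation and N-glycosylation (26 of 26), -0.44 for ER-associated degradation (14 of 15) and -0.40 for ER-to-Golgi transport (20 of 21). The median over all 4602 genes was -0.01, with 48.9% of folds positive.

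Fkbp11, a prolyl isomerase of the secretory pathway chosen after its value was seen, had the lowest p in these lists. It had 145 and 175 CPM in R594C/R594C, 294 to 498 CPM in R594C/+ and 290 to 623 CPM in WT (log2 fold -1.44, adjusted p = 0.133 by edgeR). Both R594C/R594C values lay below all the others. IgM plasma cells gave 217 and 144 CPM in R594C/R594C, 350 to 509 CPM in R594C/+ and 376 to 572 CPM in WT, again without overlap. Hspa5, the chaperone BiP, had 1489 and 2751 CPM in R594C/R594C, 3572 to 7333 CPM in R594C/+ and 2391 to 4824 CPM in WT (log2 fold against WT -0.56, adjusted p = 0.844). Hsp90b1, the chaperone GRP94, had 3487 and 6533 CPM in R594C/R594C, 7597 to 16590 CPM in R594C/+ and 5755 to 9261 CPM in WT (log2 fold -0.58, adjusted p = 0.815). For both, R594C/R594C replicate 1 was below the whole WT range and replicate 2 inside it.

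Read by replicate, the list medians were below the WT mean in both R594C/R594C replicates. For chaperones the median log2 difference from the WT mean was -1.03 and -0.28 in R594C/R594C, 0.35, 0.11, 0.25 and 0.04 in R594C/+, and 0.02, -0.13, -0.15 and 0.21 in WT. For translocation it was -0.45 and -0.33 in R594C/R594C, between -0.04 and 0.18 in R594C/+ and between -0.01 and 0.03 in WT. Replicate 1, with 10 cells, gave the larger differences in all 4 lists. In IgM plasma cells, with 79 and 43 cells, the chaperone medians were -0.04 and -0.34 and the translocation medians -0.23 and -0.36 in R594C/R594C. The summed T cell markers in the class-switched sums were 184 and 315 CPM in R594C/R594C, 72.1 to 121 CPM in R594C/+ and 29 to 408 CPM in WT. Summed monocyte and macrophage markers were 0 and 650 CPM in R594C/R594C, against 14.9 to 843 CPM in WT. Their part was not tested. Without cells holding 3 or more UMIs of T cell or macrophage genes the chaperone median was -0.34.

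**Figure D5:**
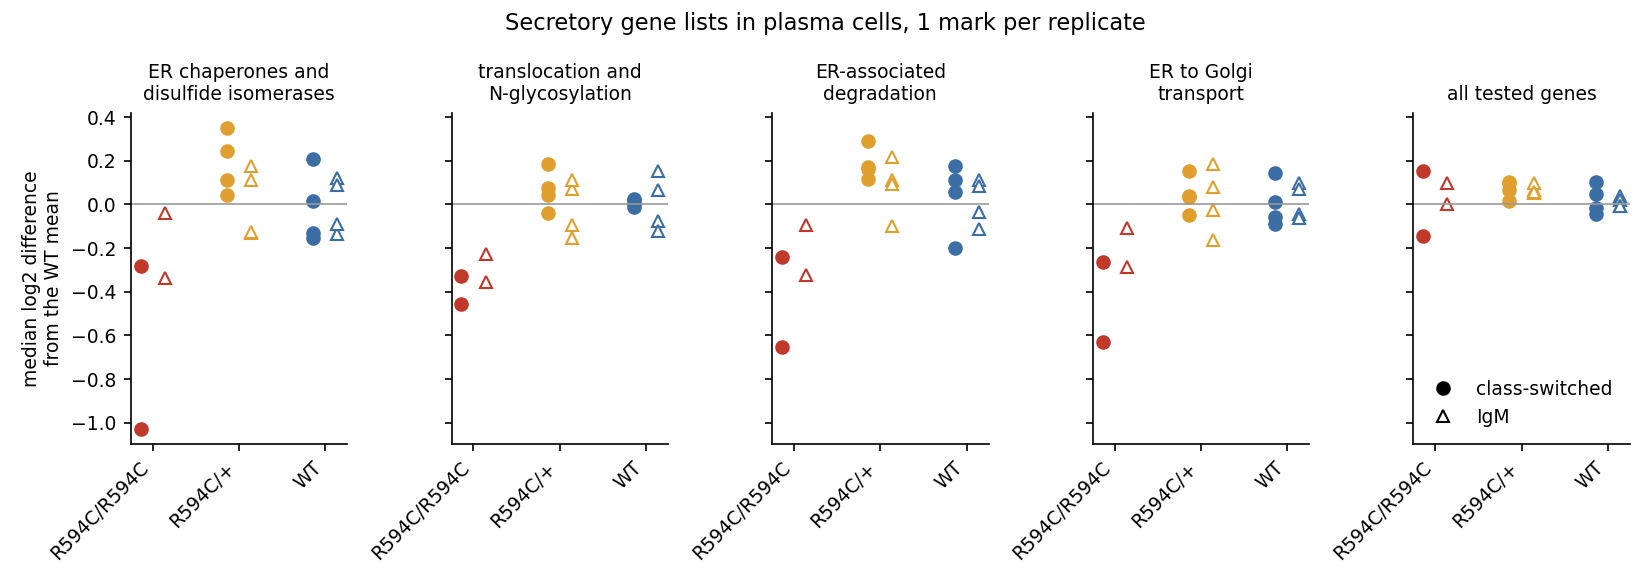
Median log2 difference from the WT mean of 4 secretory gene lists and of all genes, for each replicate, in class-switched and in IgM plasma cells. In class-switched cells both R594C/R594C replicates lie below 0 for the 4 lists, from -0.24 to -1.03, and the R594C/+ replicates lie between -0.05 and 0.35.

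The difference of the R594C/R594C effect between class-switched and IgM plasma cells was tested directly. Of 82 secretory genes, 63 had a more negative fold in class-switched cells and none passed, with list medians of -0.34, -0.12, -0.21 and -0.28 against -0.04 for all genes. Across 6636 genes, 1 passed (0.0151%), Anxa2. It had 302.7 and 117.4 CPM in class-switched R594C/R594C sums and 7.43 to 51.5 CPM in class-switched WT sums, against 18.7 and 6.26 CPM in IgM R594C/R594C sums and 21.3 to 43.4 CPM in IgM WT sums. The difference of log2 folds was 3.89 (SE 0.60, adjusted p = 0.00405), and no gene passed without R594C/R594C replicate 1.

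The sequences before the start sites of 3 secretory genes are printed because nearly all members of their lists had negative folds and stress motifs can be read in them. Windows run from 250 bases before to 50 bases after the start (RefSeq, GRCm38.p6). The ER stress response element was searched as CCAAT and CCACG with any 9 bases between, and the XBP1 core as ACGTGG, on both strands, and the motifs can overlap in CCACG. Capitals mark the matches.
Hspa5, chr2:34771840-34772139, plus strand: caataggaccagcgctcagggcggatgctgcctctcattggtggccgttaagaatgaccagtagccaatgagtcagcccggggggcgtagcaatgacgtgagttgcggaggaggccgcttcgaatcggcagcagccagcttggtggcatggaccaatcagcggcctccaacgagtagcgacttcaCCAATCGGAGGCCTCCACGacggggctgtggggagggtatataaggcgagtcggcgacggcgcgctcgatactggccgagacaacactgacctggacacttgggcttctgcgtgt
Hsp90b1, chr10:86705395-86705694, minus strand: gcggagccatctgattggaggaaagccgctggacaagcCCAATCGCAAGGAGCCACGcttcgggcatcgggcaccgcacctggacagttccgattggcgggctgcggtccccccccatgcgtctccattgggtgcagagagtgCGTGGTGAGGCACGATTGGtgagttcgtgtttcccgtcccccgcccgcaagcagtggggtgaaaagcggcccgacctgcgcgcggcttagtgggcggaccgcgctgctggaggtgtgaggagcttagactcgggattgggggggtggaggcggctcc
Tmed10, chr12:85374668-85374967, minus strand: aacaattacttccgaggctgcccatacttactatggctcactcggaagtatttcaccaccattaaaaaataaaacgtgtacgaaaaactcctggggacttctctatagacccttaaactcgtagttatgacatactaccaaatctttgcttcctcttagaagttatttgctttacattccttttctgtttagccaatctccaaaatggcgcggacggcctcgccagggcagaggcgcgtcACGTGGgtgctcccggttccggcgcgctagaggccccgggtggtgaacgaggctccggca
By exact match, Hspa5 has 1 ER stress response element and Hsp90b1 has 2, the second on the opposite strand. Tmed10, a cargo receptor between ER and Golgi, has 1 exact XBP1 core. Near matches were not counted. The element was found in 7 of 17 chaperone genes with a window (41.2%), in 2 of 14 degradation genes, in none of the other lists' genes, and in 37 of 27025 genes overall (0.137%). The XBP1 core was found in 29 of the 68 secretory genes with a window (42.6%) and in 9.40% of all genes. Among genes tested in class-switched cells it was found in 14.9%. A match is a run of letters and not a measured binding site.

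No member of the remaining lists passed in any genotype comparison. Proliferation genes had a median log2 fold of -0.58 for R594C/R594C against WT (18 of 20 negative) and -0.71 for R594C/+ against WT (20 of 20 negative). Mitochondrially encoded genes had medians of 0.42 (9 of 10 positive) and 0.35 (10 of 10 positive). Both comparisons share the WT replicates. Erythroid markers had medians of 1.94 and 4.41, with all 4 tested members positive. The 12 unfolded protein response sensors and factors had a median of -0.05 for R594C/R594C against WT.

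On the surface, 4 of 78 antibody tags fell in R594C/R594C against WT (5.13%) and none rose. CD135, the FLT3 receptor of early progenitors, had 0 and 68.6 antibody CPM in R594C/R594C, 415 to 1360 in R594C/+ and 666 to 1625 in WT (log2 fold -4.30, adjusted p = 0.00788). The R594C/R594C values rest on very few antibody UMIs. Those replicates had 10 and 75 cells, with medians of 482.5 and 427 antibody UMIs per cell over all tags. CD135 was also the 1 tag of 78 called against R594C/+ (1.28%), with a log2 fold of -3.98 and an adjusted p of 0.0276. IgG1_Rat_l, a rat isotype control antibody with no target, had 0 and 274 antibody CPM in R594C/R594C, 564 to 1012 in R594C/+ and 1691 to 2035 in WT (log2 fold -3.29, adjusted p = 0.00344). CD169 (-3.14) and TLR4 (-1.84) were the other 2. The control antibody fell with the receptors, and each genotype was stained in its own tube. Without R594C/R594C replicate 2 the CD135 and CD169 calls were lost, and the TLR4 call was lost without each of 9 replicates. For R594C/+ against WT edgeR called no tag, with 9 at an unadjusted p under 0.05, and DESeq2 called none.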

How the data were processed

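RNA, antibody and hashtag UMI counts per cell, as deposited by the authors, came from Cell Ranger 5.0.0 per the file headers, with the mm10 build and Seurat 3.1.4 named in the submitters' processing notes. Barcodes were kept with at least 200 genes, at most 10% mitochondrial UMIs and a top hashtag of at least 20 UMIs and 3 times the next, which also removes doublets between replicates. No doublet caller was run, and cells with other-lineage genes or over 3 times the median UMIs were left out as alternatives. The class-switched cells, gene lists and named genes were chosen with earlier results of these data known. Counts were summed per replicate (at least 10 cells), and 397 immunoglobulin, Jchain and Xbp1 features were left out of the tests and library sizes. An alternative that took a replicate under 10 cells dropped that replicate from its fit. Tests used edgeR 4.0.16 in R 4.3.3 (robust quasi-likelihood, TMM, filterByExpr, adjusted p under 0.05), with DESeq2 1.42.0 as an alternative. Tags needed a mean of 10 UMIs. SE is the log2 fold over the square root of F. Named genes were the 8 highest and 8 lowest called folds, called list members (at most 4 by lowest p), and otherwise the 2 most abundant members of each list. Library sizes differed between replicates by as much as the cell numbers, so sums of few cells carry more error. Intervals cover counting error only. The edgeR steps were checked on simulated counts with the same dispersion for every gene. The real sums need not share it, so this checks the steps and not the calls. Shares were tested by exact permutation with scipy 1.17.1. Gene positions and promoters are from RefSeq for GRCm38.p6.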

Additional observations from a re-analysis of the deposited data

Results flagged for a closer look

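In class-switched plasma cells, Hspa5 had 4824 CPM in WT replicate 4, far from the other 3 WT replicates at 2391 to 2740 CPM. The gap to the nearest of the others, as a share of the group's range, is above Dixon's 95% critical value for 4 samples, and 56 groups of 4 samples were examined in this way, of which chance alone passes about 1 in 20. The R594C/R594C minus WT effect on Anxa2 differed between class-switched and IgM plasma cells by a log2 fold of 3.89 in the test of the difference itself (edgeR adjusted p = 0.00405).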

How the results depend on the processing

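The cell number per replicate is the main limit: sums rest on 10 to 75 class-switched cells. Same-numbered replicates of different genotypes did not vary together (r from -0.106 to 0.025 over 8 pairs, against -0.146 to 0.205 for other pairs), so the numbers are not treated as pairs. With the replicate block, 0 genes were called for R594C/R594C against WT, 7 for R594C/+ against WT, 3 for R594C/R594C against R594C/+, and 0 tags for R594C/R594C against R594C/+. For R594C/R594C against WT (1 called), 20 genes passed with no filter on low counts, 0 with expressed sex as a covariate, 0 with the stricter gate, 7 without Ighv1-78 cells, 5 without Mki67 or Top2a cells and 9 without IgG3 cells. Leaving out single replicates gave 0 to 4. For R594C/+ against WT (1 called), 0 passed with immunoglobulin genes kept, 5 by DESeq2, 30 with no filter, 0 with the stricter gate, 3 without cells over 3 times the median UMIs and 2 without Ighv1-78 cells, and 0 to 13 without single replicates. For R594C/R594C against R594C/+ (0 called), 7 passed by DESeq2, 32 with no filter and 16 without Ighv1-78 cells. Counts of the fits that lost R594C/R594C replicate 1 to the cell minimum are again left out. For class-switched against IgM cells (178 called), 279 passed with no filter, 289 with the looser gate, 111 without Mki67 or Top2a cells, and 118 to 207 without single replicates, the lowest without R594C/+ replicate 2. For IgA against IgG cells (39 called), 62 passed with immunoglobulin genes kept, 18 by DESeq2, 152 with no filter and 15 with no replicate block. By choice of cells, 95 passed with the looser gate, 0 with the stricter gate and 59 without cells over 3 times the median UMIs. Without Ighv1-78 cells 82 passed, with WT replicate 2 also dropped. Without Mki67 or Top2a cells 6 passed, with R594C/+ replicate 2 also dropped. Without IgG3 cells 0 passed, with R594C/R594C replicate 2 also dropped. Without single replicates 0 to 132 passed. Tags for R594C/R594C against WT (4 called) reached 41 with no minimum on antibody counts and 2 to 4 without single replicates. Tags for R594C/R594C against R594C/+ (1 called) and the difference between classes (1 called) gave 0 to 1 without single replicates. The 4 secretory list medians for R594C/R594C against WT kept their sign, from -0.992 to -0.339 for chaperones, -0.493 to -0.334 for translocation, -0.616 to -0.33 for degradation and -0.626 to -0.318 for transport. Herpud1 (log2 fold -0.12 for R594C/R594C against WT) ranged from -0.391 to 0.176 without single replicates, positive without WT replicate 2. No named called gene or tag changed sign, but calls were often lost: 13 of 35 named genes for class-switched against IgM cells, 10 of 15 named tags and 1 of 23 named genes for IgA against IgG cells held their call under every alternative that could be run. No share passed 0.05 under any alternative. The cause of these changes was not tested. The clone, cycling and isotype alternatives were chosen after seeing the data.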
